A study of Mus musculus with 14 samples.

Results

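The 50 genes described here carry a cell from G1 into S phase and copy its DNA: the G1 cyclins and their kinases, the E2F and Myc transcription factors, the retinoblastoma family, and the licensing, polymerase and nucleotide enzymes of replication. They form a list of gene symbols drawn from 21887 protein-coding genes; the rule uses no measured value, though the list was drawn up with earlier results of these data known. A peak of H3K9ac (acetylation of histone H3 at lysine 9, found at active promoters and enhancers) was assigned to a gene when it overlapped the RefSeq span of the gene extended by 2 kb on each side. Of the 50 genes, 45 had a peak in all 12 libraries.

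The libraries are chromatin immunoprecipitations sequenced (ChIP-seq) from regenerating mouse liver, to ask what a delay of the hypoglycemia that follows partial hepatectomy does to H3K9ac. All came from liver of male C57BL6/J mice of 2 to 3 months, taken 12 h after partial hepatectomy, with the antibody AcH3K9 (abcam, ab10812). The groups are 6 libraries titled d22, whose treatment label reads vehicle (1/2 strength PBS), and 6 titled pbs, whose treatment label reads dextrose (22.5% in vehicle). Title and treatment thus go against each other, so the groups keep their titles, differences are taken as d22 minus pbs, and which mice received dextrose was not inferred. The pooled input DNA of both groups carries the dextrose label. The labels do not say whether the libraries come from separate animals. The p-values therefore measure the spread among these libraries alone, and that spread may be technical.

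In the liver, hepatocytes rest outside the cell cycle and re-enter it after partial hepatectomy. Growth signals raise Myc and D-type cyclins, and cyclin D with CDK4 or CDK6 phosphorylates the retinoblastoma protein. This frees activator E2Fs to transcribe cyclin E, the MCM helicase, polymerases and the enzymes that make deoxynucleotides. The promoters of these genes often hold E2F sites, and H3K9ac lies around the start sites of genes that are active or ready to be.

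Between 6343891 (d22 4) and 13259411 (pbs 1) tags remained per library after filtering, per the file headers. The library d22 4 stood apart, with 44585 peaks against 26352 to 30780 in the other 11 libraries. The liver label was checked against marker genes: 10 of 10 hepatocyte markers, Alb and Hnf4a among them, had peaks in all 12 libraries. Their summed tags came to 554.1 to 698.2 CPM (tags scaled to library size) in d22 libraries and 692.5 to 770.1 CPM in pbs libraries. Of the 10, 0 were called different, against 0.583% of all tested genes on tags, so this count does not show equal levels. Of other cell types, 1 of 5 macrophage markers (13.7 to 29.41 CPM summed in d22, 13.22 to 21.27 in pbs), 1 of 5 lymphocyte markers (13.81 to 44.69 and 12.95 to 26.06), 3 of 5 endothelial markers (19.88 to 56.65 and 11.55 to 35.65), 0 of 5 stellate markers (up to 6.812 and 3.734) and 1 of 4 cholangiocyte markers (12.77 to 24.59 and 12.97 to 17.13) had a peak in all 12. No peak was listed at the lymphocyte genes Cd3e, Cd3g and Ptprc, the cholangiocyte genes Krt19, Krt7 and Epcam, the stellate genes Des and Col1a2, or the macrophage gene Marco. Of 5 genes not of liver, Sftpc had peaks in all 12 libraries, while Myod1, Neurod1 and Ins2 had none. The part of cell composition in the values below was not tested, and in whole tissue, fewer cells with the mark and less mark per cell cannot be told apart.

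The promoters show what the set shares in sequence. RefSeq (GRCm38.p6) promoter sequences, from 250 bases before to 50 bases after a start site, were at hand for 39 of the 50 genes. The letters bound by E2F, taken as TTTCCCGC, TTTCGCGC, TTTGCCGC or TTTGGCGC on either strand, were in 17 of the 39 (43.6%), against 607 of 21263 protein-coding promoters (2.9%) and 744 of all 32851 promoters (2.3%). Those shown first carry the match in capitals. Cdc6, Cdt1, Mcm3, Mcm6 and Mcm7 build and load the replicative helicase, and Mcm3, Mcm6 and Mcm7 hold more than 1 match.
Cdc6, chr11:98907901-98908200, plus strand: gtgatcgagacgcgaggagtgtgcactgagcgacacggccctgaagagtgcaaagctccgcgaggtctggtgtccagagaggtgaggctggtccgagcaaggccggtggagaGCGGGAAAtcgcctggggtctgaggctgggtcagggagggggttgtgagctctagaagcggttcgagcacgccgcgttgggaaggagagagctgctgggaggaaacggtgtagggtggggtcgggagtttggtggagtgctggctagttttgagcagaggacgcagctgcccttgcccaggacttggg
Cdt1, chr8:122567765-122568064, plus strand: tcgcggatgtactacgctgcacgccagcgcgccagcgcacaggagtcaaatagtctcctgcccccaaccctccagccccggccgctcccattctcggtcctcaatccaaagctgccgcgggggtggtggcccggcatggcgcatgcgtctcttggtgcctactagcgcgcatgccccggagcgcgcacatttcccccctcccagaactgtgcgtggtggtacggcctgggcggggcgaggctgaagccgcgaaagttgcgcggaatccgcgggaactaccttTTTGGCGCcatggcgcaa
Mcm3, chr1:20820263-20820562, minus strand: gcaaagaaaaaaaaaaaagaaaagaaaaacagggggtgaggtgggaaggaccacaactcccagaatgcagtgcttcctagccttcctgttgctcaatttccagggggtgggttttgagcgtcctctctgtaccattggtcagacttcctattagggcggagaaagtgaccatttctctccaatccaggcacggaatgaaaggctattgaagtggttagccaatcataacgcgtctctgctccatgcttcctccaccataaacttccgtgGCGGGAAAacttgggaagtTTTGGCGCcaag
Mcm6, chr1:128359656-128359955, minus strand: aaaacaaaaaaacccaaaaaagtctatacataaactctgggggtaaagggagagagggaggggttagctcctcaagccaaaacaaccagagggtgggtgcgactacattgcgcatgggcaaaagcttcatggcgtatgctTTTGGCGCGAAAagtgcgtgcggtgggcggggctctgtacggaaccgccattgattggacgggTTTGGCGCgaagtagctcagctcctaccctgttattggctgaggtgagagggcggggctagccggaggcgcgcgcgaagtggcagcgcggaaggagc
Mcm7, chr5:138171834-138172133, minus strand: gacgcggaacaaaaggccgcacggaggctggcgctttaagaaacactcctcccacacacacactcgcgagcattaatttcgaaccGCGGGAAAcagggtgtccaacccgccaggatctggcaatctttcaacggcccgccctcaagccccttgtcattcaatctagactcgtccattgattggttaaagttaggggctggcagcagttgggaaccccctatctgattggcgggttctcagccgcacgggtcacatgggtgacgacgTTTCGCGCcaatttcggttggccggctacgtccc

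In Mcm6 a pair of matches overlap, TTTGGCGC on the strand shown and TTTCGCGC on the other (written GCGCGAAA above). The other 12 genes with the letters were Cdk2, Cdc25a, E2f2, E2f3, E2f7, Rbl1, Mcm5, Orc1, Pola1, Pold1, Lig1 and Mycn. Matches lay from 198 bases before the start (E2f7) to 47 after it (E2f2 and Pold1). The letters CCAAT, bound by NF-Y, were in 24 of the 39 (61.5%), against 38.2% of protein-coding and 37.4% of all promoters. GGGCGG, the GC box of Sp factors, was in 29 (74.4%), against 46.2% of protein-coding and 35.7% of all promoters. The E box CACGTG bound by Myc was in 5 (12.8%), against 7.8% and 7.2%, and TTTGAA, the core of the CHR element of late cell cycle genes, was in 7 (17.9%), against 16.0% and 17.9%. Each of these motifs was searched on both strands, each was counted apart even where 2 share bases, and a match is a run of letters, not a bound site. The 39 promoters had a median GC content of 57.7% and 23 CpG, against 56.3% and 13 for protein-coding promoters.

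The promoters of Rrm2 and Mcm10 had 0 matches to the E2F letters and are shown with CCAAT in capitals, since both return below. Rrm2 encodes the small subunit of ribonucleotide reductase, which is made in S phase, and Mcm10 encodes a factor that helps to activate the helicase.
Rrm2, chr12:24708004-24708303, plus strand: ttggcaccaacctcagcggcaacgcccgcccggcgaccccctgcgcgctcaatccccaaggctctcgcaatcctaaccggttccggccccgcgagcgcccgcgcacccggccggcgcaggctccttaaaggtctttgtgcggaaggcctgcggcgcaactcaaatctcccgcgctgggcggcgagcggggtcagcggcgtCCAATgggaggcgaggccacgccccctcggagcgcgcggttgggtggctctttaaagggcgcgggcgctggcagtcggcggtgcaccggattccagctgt
Mcm10, chr2:5012742-5013041, minus strand: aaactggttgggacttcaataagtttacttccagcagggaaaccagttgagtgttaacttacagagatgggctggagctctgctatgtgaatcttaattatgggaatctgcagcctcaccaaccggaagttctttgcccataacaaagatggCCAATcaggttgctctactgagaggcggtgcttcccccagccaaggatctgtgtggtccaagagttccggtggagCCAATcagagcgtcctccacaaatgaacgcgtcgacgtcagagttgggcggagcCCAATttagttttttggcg

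A peak in every library was more frequent at these genes than over all protein-coding genes, while the tag density of most lay below the median of all tested genes. A peak was present in all 12 libraries for 45 of 50 (90.0%), against 11326 of 21887 protein-coding genes (51.7%). Levels between genes were compared as tag density, the CPM, scaled by TMM (trimmed mean of M values, a correction for composition), per kb of called peak. The 45 members had a median density of 5.151, against 6.206 over all 11326 genes, and 8 of 45 lay above that value. Their called length had a median of 2075 bp, against 2482.5 bp over all genes.

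Myc, the growth-induced transcription factor, had the highest density, 9.21 ± 0.50 CPM per kb in d22 libraries and 9.39 ± 1.19 in pbs libraries (SD, n = 6 each). It was followed over all 12 libraries by Cdk4 (8.98), Fen1 (8.46), Cdk2 (8.32) and Lig1 (7.54), in CPM per kb. CDK4 and CDK2 are kinases that work with cyclin D and cyclin E, and FEN1 and LIG1 trim and seal the lagging strand. Windows can hold a neighbour's peaks, and the order changes with peaks that overlap the gene's own span alone, which 41 members had in every library: Cdk4 was then highest (10.09), before Myc (9.66), Fen1 (8.82), Lig1 (7.54) and E2f4 (7.46), and Cdk2 had 6.24 CPM per kb. On that measure 8 of 41 members lay above the median of all 10808 such genes (6.297). At the other end stood E2f1, the prototype activator E2F, with 3.15 ± 0.61 CPM per kb in d22 and 2.94 ± 0.37 in pbs libraries (SD, n = 6 each). Cdc6 (3.70), E2f2 (3.75), Tk1 (3.79) and Mycn (3.87) were next to it. In the order of the 45 densities, 0 of 44 neighbouring pairs differed by more than the larger of their SDs over libraries. Neighbours in a sorted list lie close by construction, so this count does not measure how firm the wider order is.

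**Figure D1:**
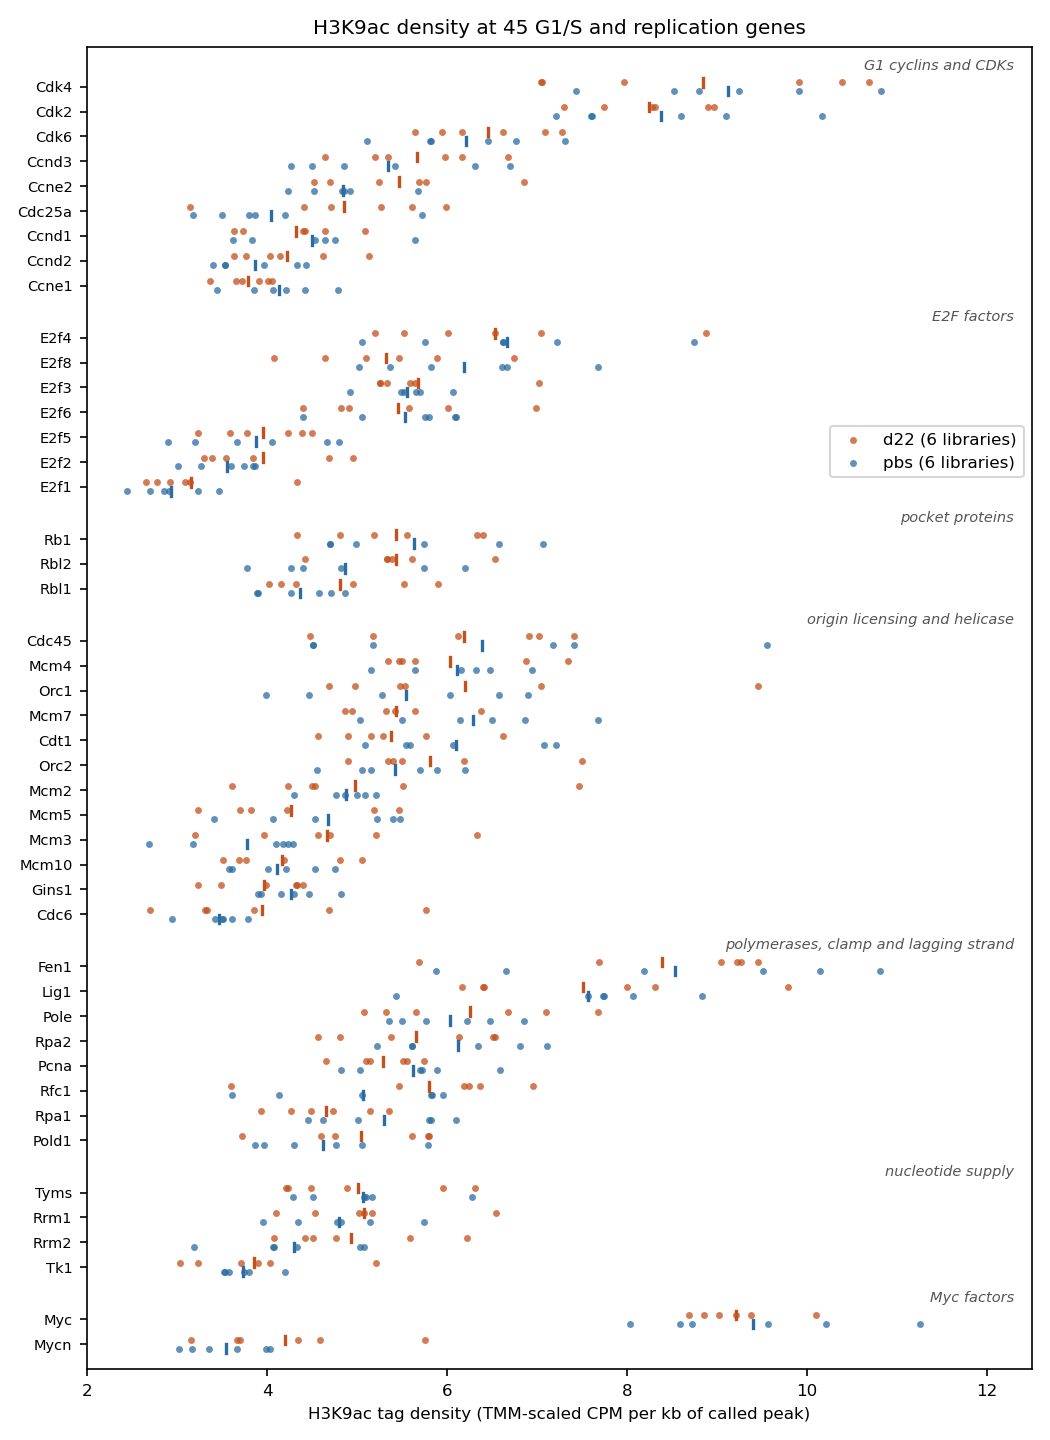
H3K9ac tag density (TMM-scaled CPM per kb of called peak) at the 45 genes with a peak in every library, grouped by role. Each point is a library (d22 above, pbs below, 6 each) and the bars are group means. Myc has the highest mean over the 12 libraries (9.30) and E2f1 the lowest (3.05), and the groups overlap in density at all 45 (they do not at 0.0706% of all tested genes).

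In width, Ccnd3 (cyclin D3) had the most called sequence, 8676 ± 1869 bp in d22 and 8254 ± 2479 bp in pbs libraries (SD, n = 6 each). It also had the most tags, a mean of 45.28 CPM over the 12 libraries, with Myc next to it at 44.39 CPM. With peaks overlapping the gene span alone, Ccnd3 had 44.3 CPM and 8224 bp, still the most of the 41; a peak of its neighbour Taf8 entered the window in d22 1 alone. Mcm3, a helicase subunit, had the least called sequence, 598 ± 198 bp in d22 and 760 ± 135 bp in pbs libraries (SD, n = 6 each), and the fewest tags, a mean of 2.78 CPM. Mcm3 had as few as 9 tags in a library, as had E2f5 in pbs 3, so the values of both carry much counting error.

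Merging the peaks of all libraries gave 149 regions at the 50 genes, of which 58 were called in all 12 libraries and 47 (31.5%) in 1 library, against 47.0% in 1 library over all 57979 regions. Of those 47, 28 came from d22 4, which also gave 58.4% of all regions called in 1 library. Of the 45 genes, 35 had exactly 1 region called in all 12 libraries and 10 had more, Ccnd3 among them with 5, of which 4 touch its span. The 58 regions had a median width of 2437 bp, against 2752 bp over the 12375 such regions of the genome. Tk1, thymidine kinase of the salvage pathway, lay in the widest, 10975 bp at chr11:117823347-117834321 (mm10), wider than 98.62% of the 12375, and it reaches the neighbour Afmid. The Ccnd1 region of 7483 bp and the E2f8 region of 7241 bp were wider than 95.31% and 94.93%.

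At 13 of the 45 genes, the region at the gene also reached another protein-coding gene, so its tags cannot be given to 1 of them. These pairs were Cdk2 with Pmel, E2f4 with Elmo3, Rb1 with Lpar6, Mcm4 with Prkdc, Mcm7 with Ap4m1, Orc1 with Prpf38a, Pcna with Cds2, Tk1 with Afmid, Pole with Pxmp2, Cdc45 with Ufd1, Lig1 with Zswim9, Fen1 with Tmem258 and Rpa1 with Smyd4. Windows also took in peaks that lay beyond the member's span and in another gene, and these were counted whole. They held 76.0% of the window's tags at Pole (in Pxmp2), 63.9% at Cdk4 (Tspan31), 61.6% at Cdk2 (Rab5b and Pmel) and 57.1% at Pcna (Tmem230). Their share was 41.6% at Cdt1 (Aprt), 38.5% at Mcm4 (Prkdc), 23.2% at Mcm2 (Tpra1), 19.6% at Tk1 (Afmid), 15.7% at Ccnd1 (LTO1), 14.5% at Cdc45 (Cldn5) and 9.6% at E2f4 (Exoc3l), and at most 4.4% on either side of the others. With peaks of the span alone, log2 changes by edgeR were -0.12 for Cdk4, 0.09 for Cdk2, -0.35 for Mcm4, -0.26 for Tk1, -0.31 for Cdc45 and 0.01 for E2f4, with adjusted p between 0.7914 (Mcm4) and 0.9858 (E2f4). Those of Cdt1, Mcm2, Ccnd1 and Pcna stand with their values below, and Pole had no such peak in some libraries. Span values also leave out a gene's own peaks that lie wholly before its start, as at Cdt1 in pbs 2.

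A region covered the listed start site at each of the 39 genes with a RefSeq start. The strongest summit lay downstream of the start (median over libraries) in 30 and upstream in 9, and within 500 bp of it in 34. The median distance was 213.5 bp downstream. In 21 genes the summit was downstream in every library with a peak there, and in 5 it was upstream in every one: Cdc6, Mcm5, Orc1, Cdc45 and Lig1. E2f8 stood apart, with its summit 3181 bp downstream of the start, between 3143 and 3249 bp in all 12 libraries, and a weaker set of peaks over the start itself. Cdk6 was the farthest upstream, with a median of -1143 bp, and its summit ranged from -2328 to 865 bp between libraries.

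**Figure D2:**
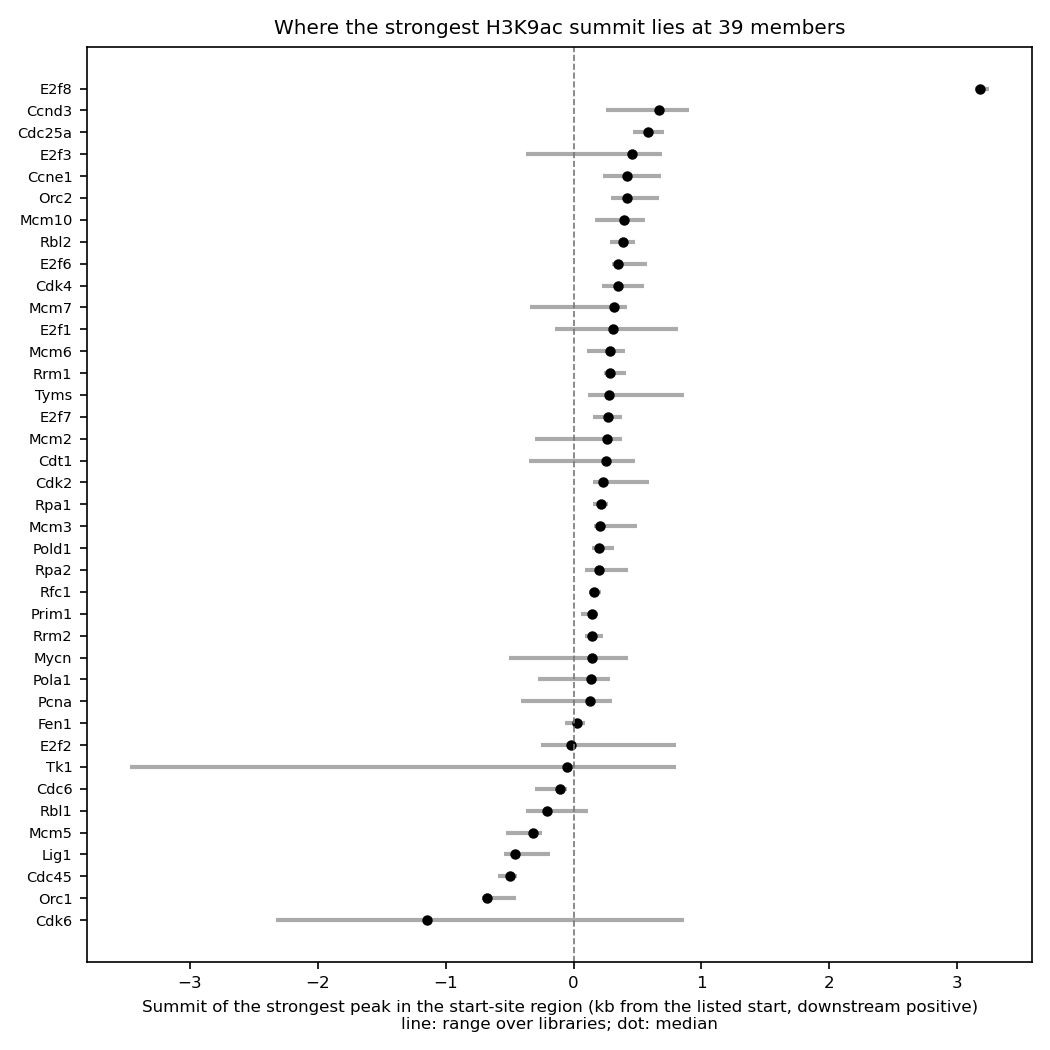
Position of the strongest H3K9ac summit in the start-site region of 39 members, in kb from the listed RefSeq start (downstream positive). Dots are medians and lines ranges over the libraries with a peak there. In 34 genes the median lies within 500 bp of the start, and E2f8 lies 3181 bp downstream.

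For the 45 genes, tags were compared between d22 and pbs with edgeR's quasi-likelihood test, fitted on 11326 genes and adjusted over all of them (Benjamini-Hochberg). None of the members passed an adjusted p of 0.05: 0 of 45 were called, against 66 of all genes (0.583%), and 6 of 45 had an unadjusted p under 0.05, against 10.6% of all genes. The log2 change was negative in 26 members (57.8%, against 47.9% of all genes) and positive in 19, with a median of -0.04, against 0.01 over all genes. It ran from -0.72 (Cdt1) to 0.78 (Rrm2). The counts by role below stand against the same shares of all genes, 0.583% called and 47.9% negative. CPM of the groups did not overlap at 1 of the 45, Pole, against 1.2% of all genes. With limma, 0 of 45 were called for called length (0.0% of all genes) and 0 of 45 for tags per kb (0.0% of all genes). At an unadjusted p under 0.05 there were 3 for length (Rrm1, Pole and Ccne2), against 5.77% of all genes, and 3 for tags per kb (Mcm7, E2f8 and Rpa1), against 6.22%. By region, 0 of the 58 were called by edgeR, against 1.0% of all regions, and 8 had an unadjusted p under 0.05, against 10.9%.

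Summed over the 50 genes, with each peak counted once, tags came to 694.6 ± 33.2 TMM-scaled CPM in d22 libraries and 732.8 ± 47.8 in pbs libraries (SD, n = 6 each). That was 0.325% ± 0.027 of all tags in peaks in d22 libraries and 0.347% ± 0.022 in pbs libraries. Both pairs overlap within their spread between libraries. The list holds genes that were picked with earlier results known, so no test was made of these sums.

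**Figure D3:**
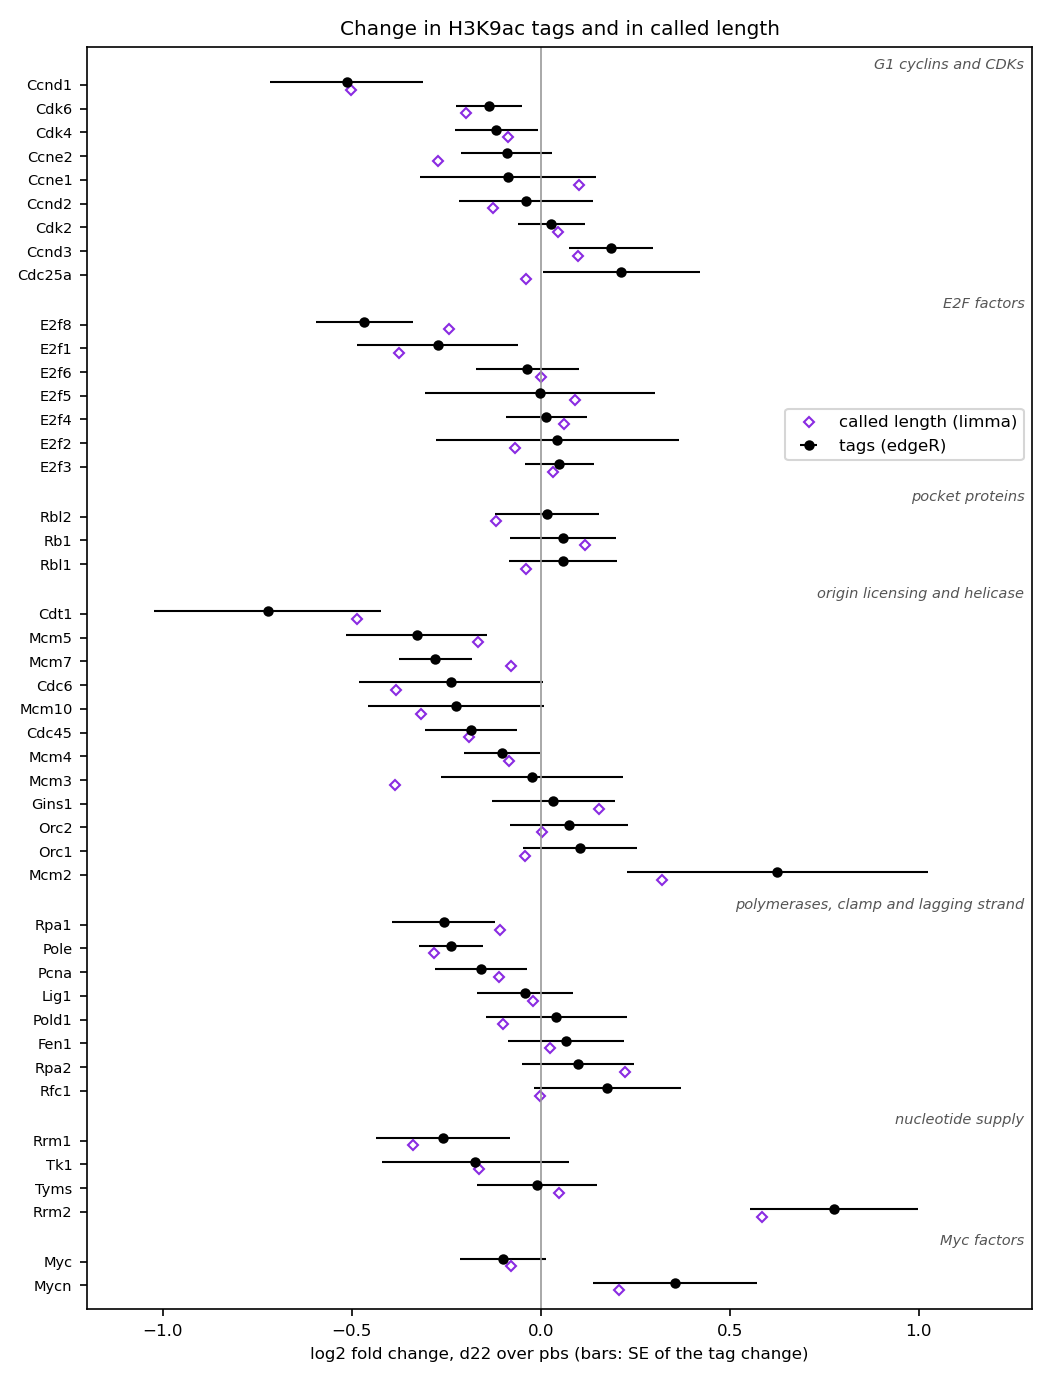
Log2 fold change of H3K9ac tags (filled circles, bars are SE) and of called length (open diamonds), d22 over pbs, for the 45 members by role. Cdt1 has the lowest tag change (-0.72) and Rrm2 the highest (0.78), and 0 of 45 pass an adjusted p of 0.05 for either measure.

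Among G1 cyclins and CDKs, 0 of 9 were called and 6 of 9 changes were negative, with a median log2 change of -0.09. Ccnd1 encodes cyclin D1, the D-type cyclin most tied to hepatocyte re-entry into the cycle. It had 12.8, 23.82 and 31.49 CPM (lowest, median and highest) in d22 libraries, against 24.6, 30.12 and 40.94 CPM in pbs libraries. The groups overlap, with d22 6 and d22 4 lowest and pbs 1 and pbs 6 highest. A peak at the neighbour LTO1 entered the window in all libraries but d22 4 and d22 6; peaks of the Ccnd1 span alone gave 16.07 ± 4.12 CPM in d22 and 21.02 ± 3.79 CPM in pbs libraries (SD, n = 6 each), a log2 change of -0.39 ± 0.17 (SE; edgeR adjusted p = 0.481), with d22 6 and d22 4 again lowest. The log2 change of tags was -0.51 ± 0.20 (SE; edgeR adjusted p = 0.368). Its peaks covered 5302 ± 2119 bp in d22 libraries and 7419 ± 2832 bp in pbs libraries (SD, n = 6 each). The region over the upper end of the gene, chr7:144936521-144944003 (mm10), gave a log2 change of -0.41 ± 0.13 (SE; edgeR adjusted p = 0.198 over regions). The tag density of the whole window was 4.32 ± 0.55 CPM per kb in d22 and 4.50 ± 0.72 in pbs libraries (SD, n = 6 each).

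Ccnd3 had 40.15, 46.52 and 60.14 CPM in d22 libraries, against 35.12, 39.9 and 52.14 CPM in pbs libraries. The d22 and pbs values overlap, and the highest was d22 4. Its log2 change was 0.19 ± 0.11 (SE; edgeR adjusted p = 0.585), a sign that turns with library totals as the only scaling (-0.04), which itself moves the median of all genes by -0.20. The other 7 genes of this group lay between log2 changes of -0.14 (Cdk6) and 0.21 (Cdc25a, the phosphatase that activates CDK2), with adjusted p of 0.623 and 0.773 by edgeR.

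Among E2F factors, 0 of the 7 with a peak in every library were called, and the median log2 change was -0.0007. The activators E2f1, E2f2 and E2f3 had changes of -0.27, 0.04 and 0.05, and the repressive or pocket-protein-bound E2f4, E2f5 and E2f6 had 0.02, -0.0007 and -0.04, on the log2 scale of tags. E2f8 is an atypical E2F that represses cell cycle genes and, with E2F7, shapes the polyploidy of mouse hepatocytes. It had the smallest unadjusted p of the 45 members, 0.0021 by edgeR.

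E2f8 had 22.23, 28.19 and 33.45 CPM in d22 libraries, against 31.69, 37.95 and 52.06 CPM in pbs libraries. The groups meet only at their edges, with d22 3 and d22 5 above pbs 4, the lowest pbs library, and pbs 2 well above the rest. The log2 change was -0.47 ± 0.13 (SE; edgeR adjusted p = 0.139), between -0.53 and -0.37 with each library left out in turn. DESeq2 gave an adjusted p of 0.0418 with 2.16% of all genes called, and library totals alone gave -0.67 (edgeR adjusted p = 0.019) with 1.74% called. Called length and density averaged 5332 ± 567 bp and 5.32 ± 0.94 CPM per kb in d22 libraries against 6318 ± 761 bp and 6.19 ± 0.98 in pbs libraries (SD, n = 6 each). E2f1, at 2.768, 3.774 and 6.116 CPM in d22 libraries and 3.445, 5.042 and 5.867 CPM in pbs libraries, overlapped between groups; its change of -0.27 ± 0.21 (SE; edgeR adjusted p = 0.699) came to 0.01 with the window limited to the gene span.

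E2f7, the partner of E2f8, had a peak in 11 libraries, 6 of 6 d22 and 5 of 6 pbs. It held 13, 20.5 and 46 raw tags (lowest, median, highest) in d22 libraries and 11, 30 and 66 in the 5 pbs libraries that had a peak. The missing library was pbs 3.

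The pocket proteins bind E2Fs and hold them in check. Of Rb1, Rbl1 and Rbl2, 0 of 3 were called, and their log2 changes were 0.06, 0.06 and 0.02. Rb1 had 30.75, 36.59 and 49.01 CPM in d22 libraries and 29.21, 34.2 and 50.91 CPM in pbs libraries. Rbl1 (p107) had 8.805, 9.859 and 10.71 CPM in d22 libraries and 6.453, 9.073 and 12.33 CPM in pbs libraries. The d22 libraries of Rbl1 all lie within the pbs range, and those of Rb1 do too. The edgeR adjusted p was 0.927 for Rb1 and 0.928 for Rbl1, and the sign of both changed in some of the alternatives. Part of the Rb1 window is the region at Lpar6, a gene inside Rb1, with a log2 change of -0.15, and the region at the upper gene end had 0.0023.

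Among licensing and helicase genes, 0 of 12 tested members were called, 8 of 12 changes were negative and the median log2 change was -0.14. Cdt1, which loads the MCM helicase together with CDC6, had 9.304, 11.91 and 24.16 CPM in d22 libraries, against 12.39, 21.84 and 33.81 CPM in pbs libraries. The values form a high and a low set in both groups, d22 1 with pbs 1, pbs 5 and pbs 6 being high. In these a long peak at the neighbour Aprt reached into the window and was counted whole, with 186 raw tags in d22 1 and 298, 202 and 297 in pbs 1, pbs 5 and pbs 6. Short peaks of 15 to 28 raw tags reached in from there in d22 2, d22 3 and pbs 2. The window sum gave -0.72 ± 0.30 (SE; edgeR adjusted p = 0.419), but -0.09 within the gene span alone. The own region over the Cdt1 start had 9.097, 10.61 and 12.15 CPM in d22 libraries, against 11.27, 12.04 and 13.98 CPM in pbs libraries, a log2 change of -0.22 ± 0.10 (SE; edgeR adjusted p = 0.457). The Aprt region had a log2 change of -0.42 ± 0.11 (SE; edgeR adjusted p = 0.0934).

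Mcm7, a subunit of the MCM helicase, had 12.63, 13.83 and 14.84 CPM in d22 libraries, against 13.84, 16.67 and 19.09 CPM in pbs libraries. Pbs 6 alone fell among the d22 values. The log2 change was -0.28 ± 0.10 (SE; edgeR adjusted p = 0.277), from a region it shares with Ap4m1 (-0.29 ± 0.10, SE; edgeR adjusted p = 0.216). Its called length averaged 2567 ± 303 bp in d22 libraries and 2699 ± 176 bp in pbs libraries, and its density 5.43 ± 0.55 and 6.29 ± 0.95 CPM per kb (SD, n = 6 each). Of the 6 subunits of the MCM ring, 5 had a peak in every library, and 4 of those 5 changes were negative, with a median log2 change of -0.10.

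Mcm2 was the exception, with 0.63 ± 0.40 (SE; edgeR adjusted p = 0.623) for its window. That sum holds 32.14 CPM in d22 3, where the peak of Tpra1 reached into the window, and the next library had 11.80 CPM. The region over the Mcm2 start gave -0.04 ± 0.19 (SE; edgeR adjusted p = 0.962), and the gene span alone 0.09. Mcm6 had a peak in 4 of 6 d22 and 5 of 6 pbs libraries, with 17, 22.5 and 35 raw tags in d22 libraries and 18, 28 and 67 in pbs libraries where called. Gins2, part of the GINS complex of the active helicase, had a peak in 5 of 6 d22 and 4 of 6 pbs libraries, with 22, 42 and 77 raw tags in d22 libraries and 23, 52 and 109 in pbs libraries where called.

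Mcm10 had its tags mostly away from its start. The region called in all 12 libraries lay 16.5 to 20.3 kb downstream of the listed start, inside the gene, with 6.964, 12.09 and 16.98 CPM in d22 libraries and 9.655, 14.75 and 19.05 CPM in pbs libraries (log2 change -0.27 ± 0.19, SE; edgeR adjusted p = 0.664). Over the start itself, a region of 1032 bp was called in 4 of 6 d22 libraries (d22 1, d22 2, d22 3 and d22 4) and in 0 of 6 pbs libraries. Interior regions of Gins1 (796 bp) and Rb1 (642 bp) were also in 4 d22 and 0 pbs libraries. They are 3 of the 6 member regions called in 4 libraries, and over all 1826 regions called in 4, 89 had this pattern and 81 the opposite one. These regions were picked after their values were seen and were not tested, and d22 4, with its longer peak list, is among the libraries of all 3.

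**Figure D4:**
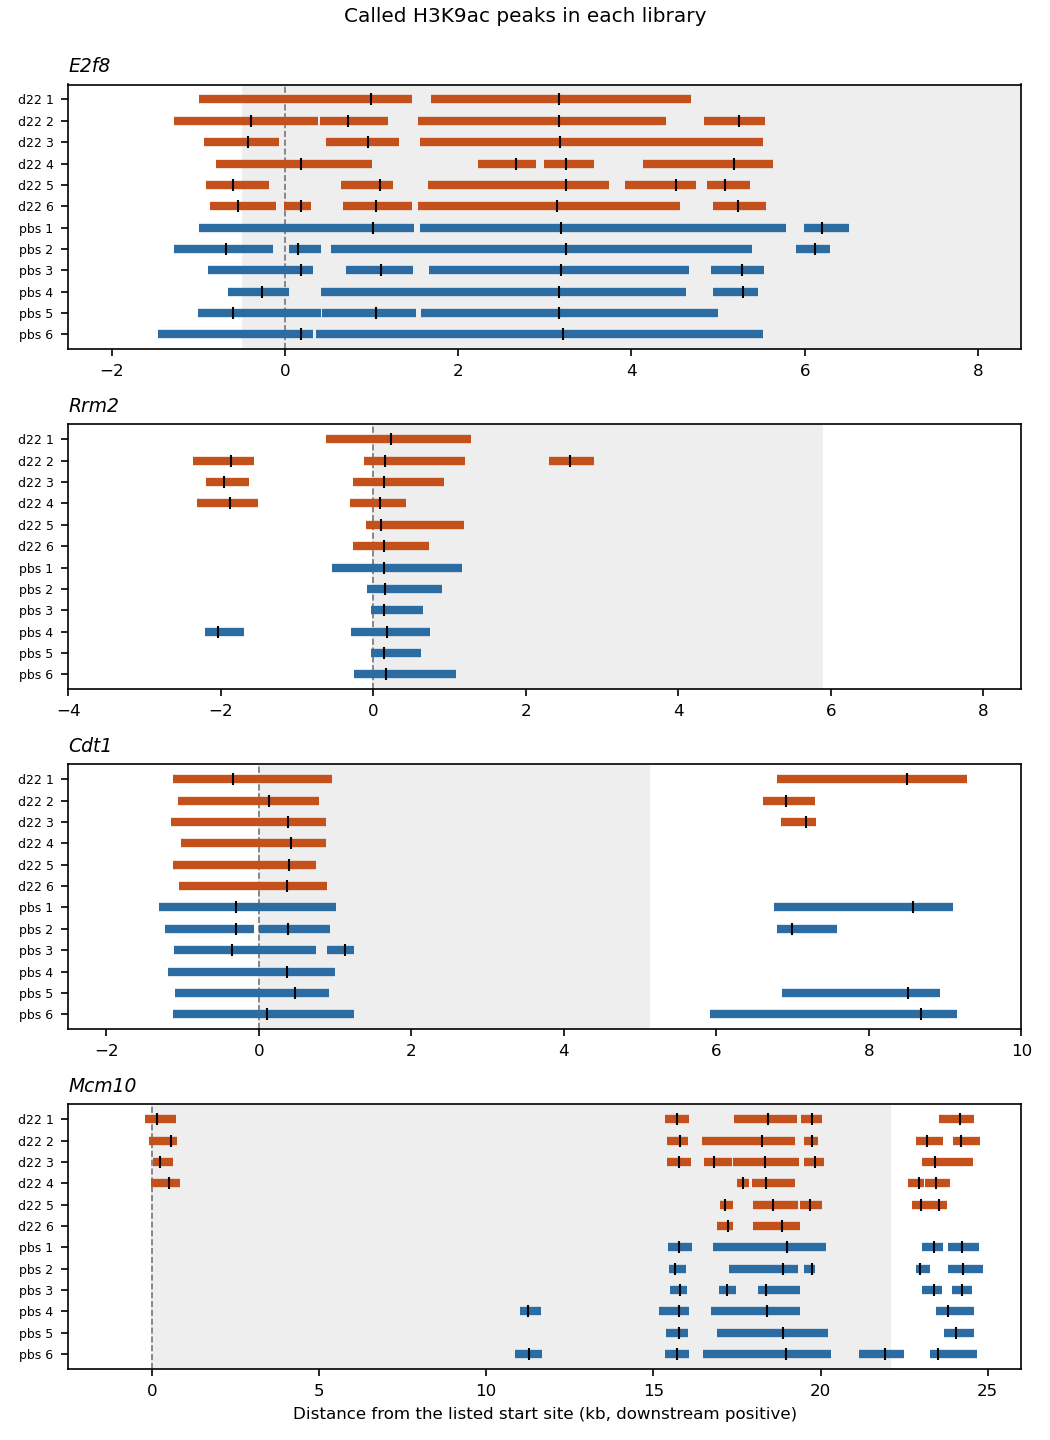
Called H3K9ac peaks of each library (bars; d22 above, pbs below) and their summits (black ticks) around 4 genes, in kb from the listed start (dashed), with the gene shaded. The E2f8 summit lies 3143 to 3249 bp downstream in all 12 libraries, Rrm2 has a region over its start and another upstream in 4 libraries, the Aprt peaks lie beyond Cdt1, and the Mcm10 start is called only in d22 1 to d22 4.

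For polymerases, the clamp and the lagging strand, 0 of 8 tested members were called, with 4 negative changes and a median log2 change of 0.00. Pole, the catalytic subunit of the leading-strand polymerase, had 12.96, 14.3 and 14.88 CPM in d22 libraries, against 15.23, 16.72 and 18.76 CPM in pbs libraries. Every d22 library lies below every pbs library, but most of these tags lie beyond the Pole span, in Pxmp2. The log2 change was -0.24 ± 0.08 (SE; edgeR adjusted p = 0.306), and its peaks covered 2311 ± 387 bp in d22 libraries and 2783 ± 226 bp in pbs libraries (SD, n = 6 each). The whole region, which Pole shares with Pxmp2, overlapped between groups, with a log2 change of -0.16 ± 0.09 (SE; edgeR adjusted p = 0.56).

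Rpa1, the large subunit of the single-strand binding protein RPA, had 5.815, 8.584 and 11.12 CPM in d22 libraries, against 9.422, 10.13 and 11.77 CPM in pbs libraries. The groups overlap, with d22 4 lowest. Its log2 change was -0.26 ± 0.14 (SE; edgeR adjusted p = 0.532), and -0.33 ± 0.15 (SE; edgeR adjusted p = 0.426) in its region with Smyd4. Pcna, the sliding clamp, had a log2 change of -0.16 ± 0.12 (SE; edgeR adjusted p = 0.694), with -0.02 in the region over its start, -0.24 in the region of its neighbour Tmem230 and 0.09 with peaks of its span alone. Its window had 10.47, 18.32 and 19.17 CPM in d22 libraries, against 17.13, 19.27 and 21.15 CPM in pbs libraries. The groups overlap, with d22 4 lowest.

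Prim1, the catalytic subunit of primase, had a peak in 6 of 6 d22 and 4 of 6 pbs libraries, with 19, 24.5 and 38 raw tags in d22 libraries and 25, 45 and 49 in pbs libraries where called. Pola1, the catalytic subunit of polymerase alpha, had a peak in 4 of 6 d22 and 5 of 6 pbs libraries, with 11, 23.5 and 41 raw tags in d22 libraries and 11, 42 and 48 in pbs libraries where called. The 41 tags, of d22 4, came from short peaks inside the gene, 49333 to 211972 bp downstream of the start, called in that library alone. The region over the Pola1 start was called in 3 of 6 d22 and 5 of 6 pbs libraries. Neither Fisher's exact test over libraries (Prim1 p = 0.4545, Mcm6, Gins2 and Pola1 p = 1.0; adjusted p = 1.0 for all 4) nor that of any of the 2039 genes with a peak in 2 to 10 libraries passed (0.0%). E2f7 fell outside that range. Mcm6, Gins2 and Pola1 had a peak in 9 libraries and Prim1 in 10. At these totals no split between the groups can bring Fisher's p under 0.05, so these 4 tests could not show a difference. The 5 genes held 11 to 109 raw tags wherever they were called. The pbs 3 and pbs 4 libraries, the shallowest of their group, held 6 of the 12 missing peaks of these 5 genes. The shallowest library of all, d22 4, missed only the peak of Mcm6. Pola1 had no peak in d22 1 and d22 3, which held 12313265 and 13084426 tags after filtering. The part of depth in the missing peaks was not tested.

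For nucleotide supply, 0 of 4 were called, and 3 of 4 changes were negative. Rrm2 was the exception and had the highest change of all members: 5.536, 7.819 and 12.93 CPM in d22 libraries, against 3.314, 4.553 and 6.935 CPM in pbs libraries. The groups overlap through d22 4 and d22 6, and d22 2 is well above the rest. The log2 change was 0.78 ± 0.22 (SE; edgeR adjusted p = 0.164), between 0.59 and 0.92 with each library left out in turn. DESeq2 gave an adjusted p of 0.0473, with 2.16% of all genes called. Called length averaged 1695 ± 595 bp in d22 libraries and 1150 ± 443 bp in pbs libraries (SD, n = 6 each), and density 4.93 ± 0.81 and 4.29 ± 0.70 CPM per kb.

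The region over the Rrm2 start alone had 5.07, 6.89 and 9.083 CPM in d22 libraries, against 3.271, 3.802 and 6.959 CPM in pbs libraries, a log2 change of 0.61 ± 0.22 (SE; edgeR adjusted p = 0.271). A region of 847 bp upstream of it was called in d22 2, d22 3 and d22 4 and in pbs 4. Rrm1, the large subunit of the same enzyme, had a change of the opposite sign, with 4.108, 5.058 and 7.033 CPM in d22 libraries, against 4.97, 5.776 and 7.751 CPM in pbs libraries. Its groups overlap, and its log2 change was -0.26 ± 0.18 (SE; edgeR adjusted p = 0.65), with a called length of 1010 ± 79 bp in d22 and 1283 ± 175 bp in pbs libraries (SD, n = 6 each).

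Myc and Mycn were not called either. Myc had 34.72, 43.16 and 50.38 CPM in d22 libraries, against 38.63, 43.54 and 55.55 CPM in pbs libraries (log2 change -0.10 ± 0.11, SE; edgeR adjusted p = 0.811). Mycn had 5.998, 7.568 and 9.56 CPM in d22 libraries, against 3.062, 5.997 and 8.503 CPM in pbs libraries (log2 change 0.36 ± 0.22, SE; edgeR adjusted p = 0.6). Both pairs overlap.

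The change of tags had the sign of the change of called length in 34 of 45 members (75.6%) and in 75.9% of all tested genes, with both measures taken from the same peaks. Cdt1, Ccnd1 and Rrm2 show this in the plot of tags against length. With the E2F letters in the listed promoter, 14 tested genes had a median log2 change of 0.04 and a median density of 4.712 CPM per kb. The 21 without them had -0.09 and 5.436 CPM per kb.

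**Figure D5:**
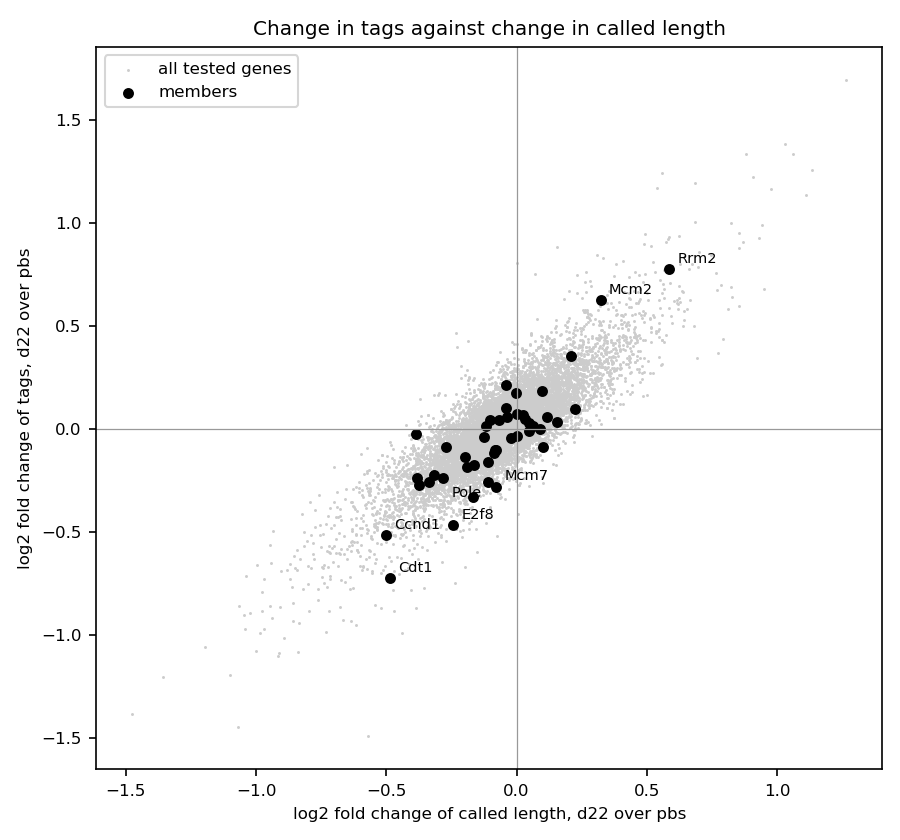
Log2 fold change of tags against that of called length, d22 over pbs, for the 45 members (black) over all tested genes (grey); members with an unadjusted p under 0.05 or a tag change beyond 0.5 are named. Members lie within the cloud of all genes, from Cdt1 at -0.72 to Rrm2 at 0.78.

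The caller's own fold enrichment, the ratio of a peak to its local background, gave another picture. Using the largest fold enrichment in each window on a log2 scale, limma called 9 of 45 members, all lower in d22, against 23.5% of all genes (22.2% lower in d22). The median log2 change was -0.35 in members and -0.31 in all genes. The Pcna window had a fold enrichment of 15.04, 21.39 and 27.48 (lowest, median and highest) in d22 libraries, against 35.69, 47.68 and 61.15 in pbs libraries (log2 change -1.15, limma adjusted p = 1.1e-05). This window holds a peak at Tmem230 in all 12 libraries. The strongest peak over the Pcna start had a median fold enrichment of 19.41 over the 12 libraries, so the window values cannot be given to Pcna alone. Rrm2, whose log2 change of tags was 0.78, had 10.54, 12.96 and 23.55 in d22 libraries, against 15.1, 28.91 and 43.32 in pbs libraries (log2 change -0.94, limma adjusted p = 0.0016). The groups do not overlap at Pcna and overlap at Rrm2. The Cdt1 window had 12.66, 17.18 and 28.42 in d22 libraries, against 21.63, 40.66 and 63.7 in pbs libraries. Its largest value was that of the Aprt peak in d22 1 (28.42), pbs 1 (63.7), pbs 5 (52.69) and pbs 6 (58.68). In the same libraries, the peaks over the Cdt1 start had 12.21, 26.13, 12.31 and 14.76. Ccnd1 had 20.09, 22.16 and 25.17 in d22 libraries, against 24.71, 36.53 and 48.41 in pbs libraries. Rrm1 had 15.62, 21.35 and 26.34 in d22 libraries, against 20.77, 32.2 and 38.32 in pbs libraries. Each of these 3 overlaps between groups.

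The other 4 members called on fold enrichment were not named for their tags. Ccne2 (cyclin E2) had a fold enrichment of 16.92, 21.53 and 25.21 in d22 libraries, against 28.74, 33.23 and 42.04 in pbs libraries, and the groups do not overlap. Its tags were 8.079, 11.72 and 14.11 CPM in d22 libraries and 11.67, 12.06 and 13.64 CPM in pbs libraries, which do overlap. E2f3 had a fold enrichment of 19.02, 22.4 and 32.81 in d22 libraries, against 28.97, 32.78 and 49.1 in pbs libraries, with tags of 19.81, 22.17 and 24.42 CPM in d22 and 18.09, 22.17 and 23.74 CPM in pbs libraries. Gins1, of the GINS complex, had 12.54, 16.67 and 20.6 in d22 libraries, against 18.83, 26.68 and 41.92 in pbs libraries, with tags of 5.098, 6.552 and 7.249 CPM in d22 and 4.868, 6.217 and 7.655 CPM in pbs libraries. Mcm4 had 24.72, 28.57 and 36.45 in d22 libraries, against 31.14, 43.12 and 51.92 in pbs libraries, with tags of 9.137, 10.34 and 12.23 CPM in d22 and 10.77, 11.11 and 12.2 CPM in pbs libraries. These 3 overlap between groups on both measures. Over the 45 members, fold enrichment did not overlap at 3 (Ccne2, Pcna and Orc2), against 6.35% of all genes. All d22 libraries were set against 1 pooled input of 12526421 tags and all pbs libraries against another of 10409931 tags, so in this measure, input and group cannot be told apart. The peaks behind the other measures were called against the same inputs. The part of input in those calls cannot be told apart from group either. The windows of Pcna, Cdt1, Ccnd1 and Mcm4 also hold a neighbour's peaks, so their largest fold enrichment can be that of the neighbour.

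The wider pathway was read from 63 further genes of replication and its control, such as other subunits of the origin recognition complex, the polymerases and clamp loaders, and chromatin assembly factors. Of these, 56 had a peak in all 12 libraries, and 0 were called, against 0.583% of all genes. An unadjusted p under 0.05 by edgeR was seen in 4 (of 56), against 10.6% of all genes. Their changes were negative in 24 and positive in 32, with a median of 0.02 on the log2 scale. Over all 11326 genes, 5429 were negative and 5897 positive.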

How the data were processed

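The authors deposited 1 peak table per library for 12 H3K9ac ChIP-seq libraries of mouse liver (6 titled d22, 6 titled pbs), and 2 pooled inputs were not analysed here. Per the submitters' processing notes, the tools were CASAVA 1.8, Novoalign and MACS 1.4.2, with the build mm10. Per the file headers, each library had its peaks called alone at a p-value cutoff of 1e-05 with at most 1 tag per position, against the pooled input of its title group, with 48 bp tags in pbs 1, pbs 4 and pbs 6 and 49 bp in the others. The deposited columns are the count of raw tags in each peak, a score made from the p-value, and the fold enrichment ratio over local background.

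Peaks overlapping a RefSeq gene span (GRCm38.p6) extended by 2 kb, by at least 1 bp, were summed whole. A gene without a peak has no count, so tags were tested for the 11326 genes with a peak in all 12 libraries, by the quasi-likelihood test of edgeR 4.0.16 (R 4.3.3; robust, TMM, library size as filtered tags, group as the only term); length and tags per kb by limma 3.58.1 on log2 values; occupancy by Fisher's exact test (SciPy 1.17.1). Adjustment was by Benjamini-Hochberg at 0.05 over all features. The SE given with an edgeR change was derived from the test, as the absolute log2 change over the square root of its F statistic. CPM are scaled by TMM within windows, or within regions for region values. Alternatives included DESeq2 1.42.0. The scripts were tested on simulated data.

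The members, the gene lists and the alternatives were chosen with earlier results of these data known. The lowest, median and highest library value of each group is given for the 2 members with the smallest p in each role group. The same holds for members called by any test and for those with a peak in 1 to 11 libraries. Duplicates were looked for and none was found (chi-square per degree of freedom 3.48 to 14.37 over 66 pairs). Precision follows depth, and the tests include the counting error.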

Additional observations from a re-analysis of the deposited data

Results flagged for a closer look

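Each value was compared with the 5 other libraries of its group by its gap over the range of the group; 90 groups were examined, 11 stood out, and chance alone gives about 1 in 20. At E2F factors, E2f1 had 6.116 CPM in d22 5, above 4.006 in the nearest library, E2f2 had 2.088 CPM in pbs 3, below 7.464, E2f5 had 2.192 CPM in d22 6, and E2f8 had 52.06 CPM in pbs 2. Rb1 had 50.91 CPM in pbs 2. Cdt1 had 24.16 CPM in d22 1 and Mcm2 32.14 CPM in d22 3, and in both the peak of a neighbour (Aprt, Tpra1) reached the window. Orc1 had 14.79 CPM, Orc2 6.313 CPM and Pcna 10.47 CPM in d22 4, the library with the fewest tags and the most peaks. Rrm2 had 12.93 CPM in d22 2, where an upstream region was also called.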

How the results depend on the processing

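Of all genes, 66 were called on tags; 197 were with library totals alone, 235 with DESeq2, 34 with no window extension, 18 without the 48 bp libraries and 2659 on fold enrichment. Members called were 1, 2 and 9 with library totals, DESeq2 and fold enrichment, against 1.74%, 2.16% and 23.5% of all genes, and 0 in the other alternatives. Leaving out a library gave 36 to 68 (under 44 without d22 6, pbs 2, pbs 4 or pbs 5). By region, 124 of 12375 became 454 with library totals (4 of the 58 member regions) and 65 to 149 on leaving out a library (lowest without pbs 4). For tags per kb, 0 became 2 with peaks of score at least 100, 2 with no extension, 3 with the replicate block and 8 with no median centring, and 0 to 1 on leaving out a library; for length, 0 became 0 to 3. Members called stayed at 0 in those. The replicate numbers did not pair the libraries (same-number correlations -0.063 to 0.171, 1 of 6 over 0.1, 2 of 6 best with their own number); with the replicate block, tags gave 56 genes and regions 127, with 0 members called. Signs turned for Ccnd3 (-0.039 with library totals, -0.39 on fold enrichment), Rb1 (-0.14 and -0.32 there, -0.093 without the 48 bp libraries, -0.0255 to 0.18 leaving out a library), Rbl1 (-0.17 and -0.41, -0.0287 to 0.15), E2f1 (0.0107 with no extension), Rpa1 (0.11), Rrm2 (-0.94) and Mycn (-0.0286) on fold enrichment, and the called length of Cdt1 (0.0183 with no extension); the cause was not tested. Library totals moved the median of all genes by -0.20. Pole had no value with no extension, nor E2f1 in 2 alternatives, which took them out of the tested genes. Depth limits genes such as Mcm3, at as few as 9 tags.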
